A study of Homo sapiens with 33 samples.

Results

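The heat shock and chaperone genes described here are 34 genes of protein folding in HT29 cells, taken as the rows of the count table whose Ensembl identifier maps to a fixed list of symbols. All 34 were found among the 60675 genes of the table, and all 34 were among the 17432 genes that passed the filter on low counts. They comprise 2 heat shock factors, 3 cytosolic HSP70 genes, 3 genes of the HSP110 exchange factor family, 2 cytosolic HSP90 genes, 7 HSP90 cochaperones, 4 J-domain cochaperones, the small heat shock protein HSPB1 with BAG3, and the 8 subunits of the chaperonin TRiC. The list also holds HSPA9, HSPD1 and HSPE1, whose products work in mitochondria, so that the name cytosolic does not cover them.

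Newly made and damaged proteins are held by HSP70, which binds short hydrophobic stretches and releases them in an ATP cycle that J-domain proteins start and exchange factors such as HSPH1 end. HSP90 receives clients from HSP70 through adaptors such as STIP1 and matures kinases and steroid hormone receptors with the help of FKBP4, FKBP5, AHSA1, PTGES3 and CDC37, while TRiC is a barrel that folds actin, tubulin and many other proteins. On proteotoxic stress HSF1, held inactive by chaperones in unstressed cells, forms trimers, binds repeats of the letters GAA in promoters (heat shock elements) and raises transcription of HSPA1A, HSPA1B, DNAJB1, HSPH1, BAG3 and HSPB1.

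HT29 is a human colorectal adenocarcinoma line. The cells were treated for 24 h with a 70% ethanol extract of a herbal formula or with vehicle, which the sample labels give as 0.1% DMSO and the series text as another percentage. Sagunja-tang and Samul-tang had 2 libraries at each dose, Palmul-tang and Sibjeondaebo-tang had 3 at each dose, and vehicle had 3. The doses were 20, 100 and 500 µg/mL, called low, medium and high below, so the 33 libraries form 13 groups. Whether replicates are separate cultures is not given, so the p-values rest on the spread between these libraries, which may be technical.

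Total counts were 28558865 to 49068018 per library with extracts and 31071786 to 35626397 in vehicle. Levels are CPM (counts scaled to library size, here with edgeR's TMM factors), and the level of a gene in bulk RNA does not tell fewer cells of a kind with the transcript from less of it per cell. All 10 epithelial markers checked were at 1 CPM or more in every library, with a sum of 11558 to 13983 CPM in extract libraries and 12219 to 12660 CPM in vehicle. Of 11 markers of fibroblasts, leukocytes and endothelium, 7 stayed under 1 CPM in every library, and the sum of all 11 was 7.15 to 11.1 CPM with extracts and 9.99 to 12.99 CPM in vehicle. The share of counts from the mitochondrial genome was 5.71 to 8.83% with extracts and 8.69 to 11.39% in vehicle, and the sample codes begin with E1 in vehicle, 14 in Sagunja-tang and Samul-tang and 15 in Palmul-tang and Sibjeondaebo-tang, for a reason the labels do not give. The titles of all 33 samples, vehicle and extracts alike, name Batch E, and whether the codes mark parts of it is not stated. Only comparisons within a set of codes were made between extracts, and a difference between the sets of codes cannot be told apart from one between their extracts. The differences in mitochondrial share and code lie along every comparison with vehicle, and their part in it was not tested. Pooled over extracts, that share overlapped between the high and the low dose, at 5.71 to 8.21% and 6.19 to 8.83%. Within Sibjeondaebo-tang it did not, at 7.2, 7.45 and 7.23% at the high and 7.94, 8.83 and 7.56% at the low dose. Within Samul-tang it was also apart, at 7.11 and 7.12% at the high and 7.9 and 7.23% at the low dose. Within Palmul-tang and within Sagunja-tang it overlapped. The part of this share in the comparisons between doses was not tested. High-dose Sagunja-tang replicate 2 stood apart from replicate 3: the difference between these libraries had an SD of 0.506 on the log2 scale over all tested genes, the largest of any replicate pair, and a Spearman correlation of -0.284 with gene length across genes. The high-dose Sagunja-tang comparisons were therefore also fitted without that library.

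The promoters of 4 of these genes are printed, all of which show letters to which HSF1 binds. They were picked, out of 10 genes with 2 or more such units, because the genes behaved differently below. With all libraries in the fit, CHORDC1 and the summed HSPA1A and HSPA1B pair rose with all 4 extracts at the high dose. HSPA8 rose there with Palmul-tang and Sibjeondaebo-tang, and HSPB1 fell with all 4. Each line is the 250 bases before the RefSeq start of the gene on GRCh38.p14, in the direction of the gene. CHORDC1 lies at chr11:90223050-90223299 on the minus strand, HSPA8 at chr11:123062137-123062386 on the minus strand, HSPA1A at chr6:31815293-31815542 on the plus strand and HSPB1 at chr7:76302423-76302672 on the plus strand. In CHORDC1 and HSPA8 the capitals mark runs of 3 or more alternating units (GAANNTTCNNGAA or TTCNNGAANNTTC), and in HSPA1A and HSPB1, which hold no such run, they mark a pair of units (GAANNTTC).
CHORDC1: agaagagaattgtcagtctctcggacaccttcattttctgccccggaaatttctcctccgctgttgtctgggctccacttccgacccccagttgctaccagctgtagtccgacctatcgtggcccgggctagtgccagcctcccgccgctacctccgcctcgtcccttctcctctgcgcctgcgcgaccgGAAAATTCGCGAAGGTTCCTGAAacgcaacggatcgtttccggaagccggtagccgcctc
HSPA8: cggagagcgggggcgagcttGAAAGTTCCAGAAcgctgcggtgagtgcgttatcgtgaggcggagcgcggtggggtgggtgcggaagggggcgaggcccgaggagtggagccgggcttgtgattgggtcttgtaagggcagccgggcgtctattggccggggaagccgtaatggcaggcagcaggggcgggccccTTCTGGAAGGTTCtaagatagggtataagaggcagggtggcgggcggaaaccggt
HSPA1A: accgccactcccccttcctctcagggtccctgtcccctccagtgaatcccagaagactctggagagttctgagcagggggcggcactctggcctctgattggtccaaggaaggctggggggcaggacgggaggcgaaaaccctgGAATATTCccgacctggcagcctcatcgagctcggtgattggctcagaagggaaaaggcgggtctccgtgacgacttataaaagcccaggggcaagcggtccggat
HSPB1: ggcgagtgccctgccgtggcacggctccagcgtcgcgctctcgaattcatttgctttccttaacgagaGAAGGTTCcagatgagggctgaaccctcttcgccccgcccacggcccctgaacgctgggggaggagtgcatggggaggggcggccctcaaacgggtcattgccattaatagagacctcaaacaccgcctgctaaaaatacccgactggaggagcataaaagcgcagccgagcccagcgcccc
A RefSeq window of 300 bases, 250 before and 50 after the start, was at hand for 31 of the 34 genes; HSF1, FKBP4 and CCT6A had none. The 3-unit motif, searched on both strands, was in 4 of the 31 windows (CHORDC1, HSPA8, DNAJA1 and DNAJB6), while 133 of 27305 windows of all genes held it (0.487%). A 2-unit motif (GAANNTTC or TTCNNGAA), which every 3-unit match also contains, was in 10 of the 31 windows, and in 13.69% of all windows. Of the 7 TRiC windows, 0 held the 3-unit motif and 2 held a 2-unit motif. The windows of HSPH1, DNAJB1 and BAG3, named above among the genes that HSF1 raises, held 0 matches of either motif. Exact letters alone were searched, so elements with changed letters were not counted. A match of letters is a description of the sequence only.

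With all libraries in the fit, few of the 34 genes rose at the low dose, and most rose modestly at the high dose of each extract. With Sagunja-tang and Samul-tang that majority depended on high replicate 2 of the extract, as given below. A gene is called where edgeR's quasi-likelihood test gave a Benjamini-Hochberg adjusted p under 0.05 over all tested genes. At the low dose against vehicle 3 genes rose and 4 fell with Sibjeondaebo-tang, where 11.1% of all genes were called higher, 10.9% lower and 22% in either direction. With low-dose Palmul-tang 5 rose and 4 fell (10.6, 9.74 and 20.3% of all genes, in the same order), with Samul-tang 1 rose and 4 fell (8.89, 8.71 and 17.6%), and with Sagunja-tang 2 rose and 4 fell (11.1, 10.7 and 21.9%). The 4 genes that fell were HSF1, HSPB1, BAG3 and STIP1 with every extract, and CCT3 was the gene that rose with every extract. Without vehicle replicate 3 the low-dose calls of CCT3 were lost with all 4 extracts (0.12 to 0.15), those of HSF1 with all but Samul-tang, and those of HSPB1 and STIP1 with Palmul-tang and Sibjeondaebo-tang, while BAG3 kept all 4. The median log2 fold change of the 34 at the low dose lay between -0.01 and 0.05.

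At the medium dose 12 genes rose and 2 fell against vehicle with Sibjeondaebo-tang (14.0% of all genes higher, 12.0% lower, 26.0% in either direction). With Palmul-tang 12 rose and 3 fell (10.3, 9.63 and 20.0%), with Samul-tang 7 rose and 4 fell (10.9, 9.27 and 20.1%), and with Sagunja-tang 2 rose and 4 fell (8.40, 8.05 and 16.4%). The median of the 34 at the medium dose was 0.09 with Sibjeondaebo-tang, 0.09 with Palmul-tang, 0.06 with Samul-tang and 0.03 with Sagunja-tang, against -0.005, 0.001, -0.002 and 0.003 over all genes in the same order. Several of the counts at these doses turned on 1 vehicle library. Without vehicle replicate 3, which had the highest mitochondrial share at 11.39%, the members called were 8 of 34 for medium Sibjeondaebo-tang, 5 for medium Palmul-tang, 3 for medium Samul-tang, 2 for medium Sagunja-tang, 1 for low Sibjeondaebo-tang, 1 for low Palmul-tang and 3 for low Sagunja-tang. Without vehicle replicate 2 they were 9 for medium Palmul-tang, 7 for medium Samul-tang and 5 for low Palmul-tang, and without vehicle replicate 1 they were 10 for low Sagunja-tang. Leaving out replicate 2 of the extract itself gave 6 for medium Palmul-tang, 1 for medium Samul-tang, 0 for medium Sagunja-tang, 2 for low Palmul-tang, 1 for low Samul-tang and 2 for low Sagunja-tang, and leaving out replicate 3 gave 5 for medium Samul-tang, 4 for low Sibjeondaebo-tang and 3 for low Samul-tang.

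At the high dose 28 of the 34 genes rose against vehicle with Sibjeondaebo-tang and 1 fell (HSPB1), where 20.5% of all tested genes were called higher, 19.1% lower and 39.6% in either direction. With Palmul-tang 28 rose and HSPB1 alone fell (17.3, 14.8 and 32.1% of all genes, in the same order). With Samul-tang 22 rose, and HSPB1 and BAG3 fell (15.0, 12.5 and 27.5%). With Sagunja-tang 19 rose, and HSPB1 and BAG3 fell (18.7, 18.0 and 36.7%). The median log2 fold change of the 34 was 0.28 with Sibjeondaebo-tang, 0.21 with Palmul-tang, 0.18 with Samul-tang and 0.16 with Sagunja-tang, while the median of all genes was -0.022, -0.006, -0.002 and -0.009 in the same order. No member rose by more than 0.45 on the log2 scale in any of the 4 comparisons, a value reached by HSPA1B and HSPD1 with Sibjeondaebo-tang. The vehicle libraries are the same in all 4 comparisons, so their likeness is not independent evidence.

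In each of the 4 high-dose comparisons with vehicle the same 17 genes were called higher: HSPA1B, HSPA9, HSP90AA1, HSPD1, DNAJA1, FKBP4, AHSA1, CHORDC1, PTGES3 and the 8 TRiC subunits. The share of all genes called higher in all 4 extracts was not counted, here or between doses. HSF1, HSF2, FKBP5, HSPB1 and BAG3 were called higher in 0 of the 4. Without high-dose Sagunja-tang replicate 2, the Sagunja-tang count was 10 higher and 2 lower, and 7 of the 17 lost their Sagunja-tang call (HSPA1B, HSPA9, HSP90AA1, AHSA1, CHORDC1, CCT2 and CCT8, at 0.05 to 0.19). The other 10 stayed called there, at 0.24 for HSPD1, 0.20 for DNAJA1, 0.18 for PTGES3, 0.17 for FKBP4 and 0.15 to 0.26 for 6 TRiC subunits, as did HSPB1 at -0.51 and BAG3 at -0.33. With only the Sagunja-tang high and vehicle groups in the fit, HSPD1, DNAJA1, CCT3, CCT4, CCT7 and TCP1 were the members of the 17 still called. Without Samul-tang high replicate 2 the Samul-tang count was 14 higher and 1 lower. With a library left out, the 29 genes called with Palmul-tang became 26 to 28 and the 29 called with Sibjeondaebo-tang became 28 to 30. The shares of all genes given above are from the fit with all libraries, not from fits with a library left out.

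**Figure D1:**
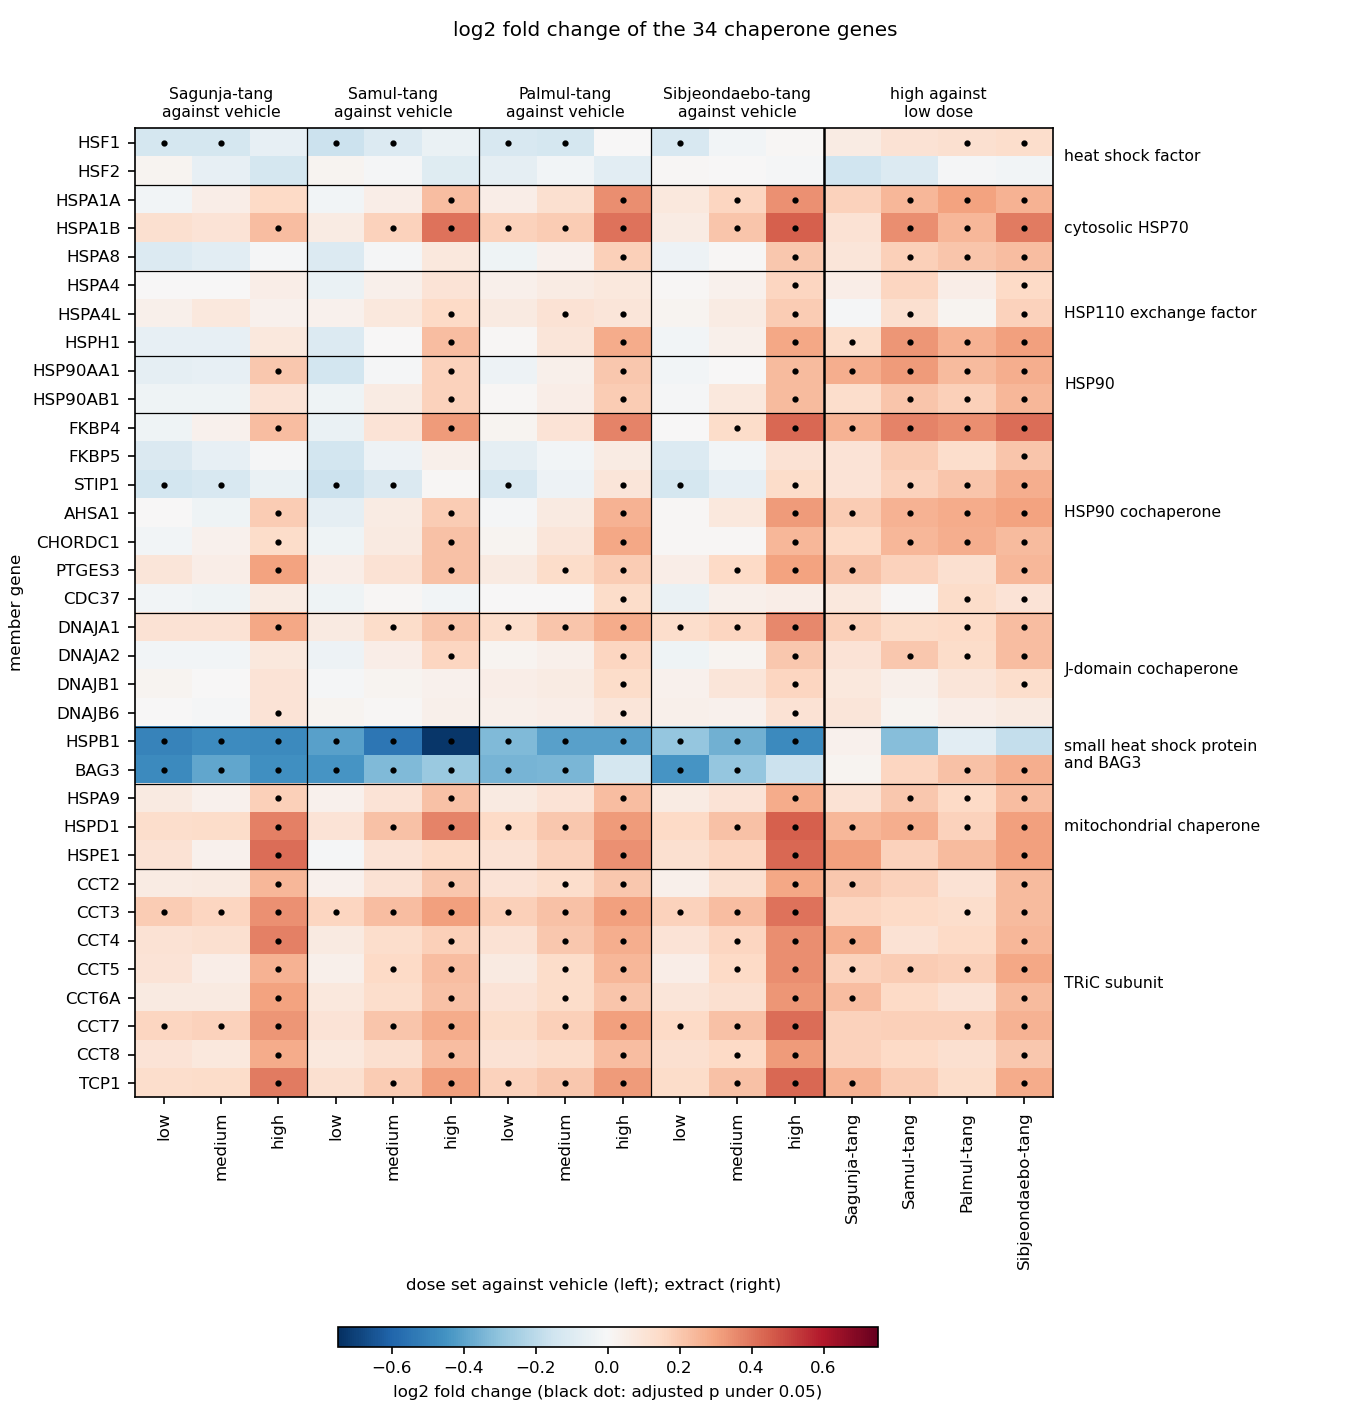
Heat map of the log2 fold change of the 34 genes (rows, grouped by role), with each dose of each extract set against vehicle in the left 12 columns and the high set against the low dose of each extract in the right 4; a black dot marks an adjusted p under 0.05. Red (higher) fills most of the high-dose columns, all 8 TRiC rows are dotted there in all 4 extracts, and HSPB1 and BAG3 form a blue band against vehicle.

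Setting the high against the low dose of the same extract leaves vehicle out. With Sibjeondaebo-tang 31 of the 34 genes were higher at the high dose and 0 were lower, where 15.5% of all genes were called higher, 14.3% lower and 29.9% in either direction. With Palmul-tang 20 were higher and 0 lower (7.66, 6.75 and 14.4%), with Samul-tang 15 and 0 (4.10, 3.43 and 7.53%), and with Sagunja-tang 12 and 0 (3.33, 3.86 and 7.19%). The median log2 difference of the 34 was 0.24 with Sibjeondaebo-tang, 0.15 with Palmul-tang, 0.17 with Samul-tang and 0.15 with Sagunja-tang, against -0.008, 0.000, 0.002 and 0.001 over all genes in the same order. At an unadjusted p under 0.05 the members were 33, 29, 27 and 24, in the same order and in either direction. HSPH1, HSP90AA1, HSPD1, FKBP4, AHSA1 and CCT5 were called higher in all 4, but without high replicate 2 FKBP4 was the only one of them still called with Sagunja-tang. The means of the low, medium and high groups were in ascending order for 30 of the 34 genes with Sibjeondaebo-tang, 30 with Palmul-tang, 30 with Samul-tang and 15 with Sagunja-tang. How many of all genes followed that order, or reached an unadjusted p under 0.05, was not counted. With medium set against low, 0 members were called with any extract, while the members at an unadjusted p under 0.05 were 9 for Sibjeondaebo-tang, 3 for Palmul-tang, 6 for Samul-tang and 0 for Sagunja-tang, and DESeq2 called 1 with Sibjeondaebo-tang and 0 with the others. Of all genes, 0.0975% were called in either direction there with Sibjeondaebo-tang, 0.00574% with Palmul-tang, 0.00574% with Samul-tang and 0% with Sagunja-tang.

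The Sagunja-tang count of 12 rested on few libraries: it was 1 without high replicate 2, 18 without high replicate 3, 2 without low replicate 2 and 2 without low replicate 3. The Samul-tang count of 15 was 7 without high replicate 2, 6 without low replicate 2 and 7 without low replicate 3. The Palmul-tang count of 20 was 13 without high replicate 1. The Sibjeondaebo-tang count of 31 stayed between 27 and 32.

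**Figure D2:**
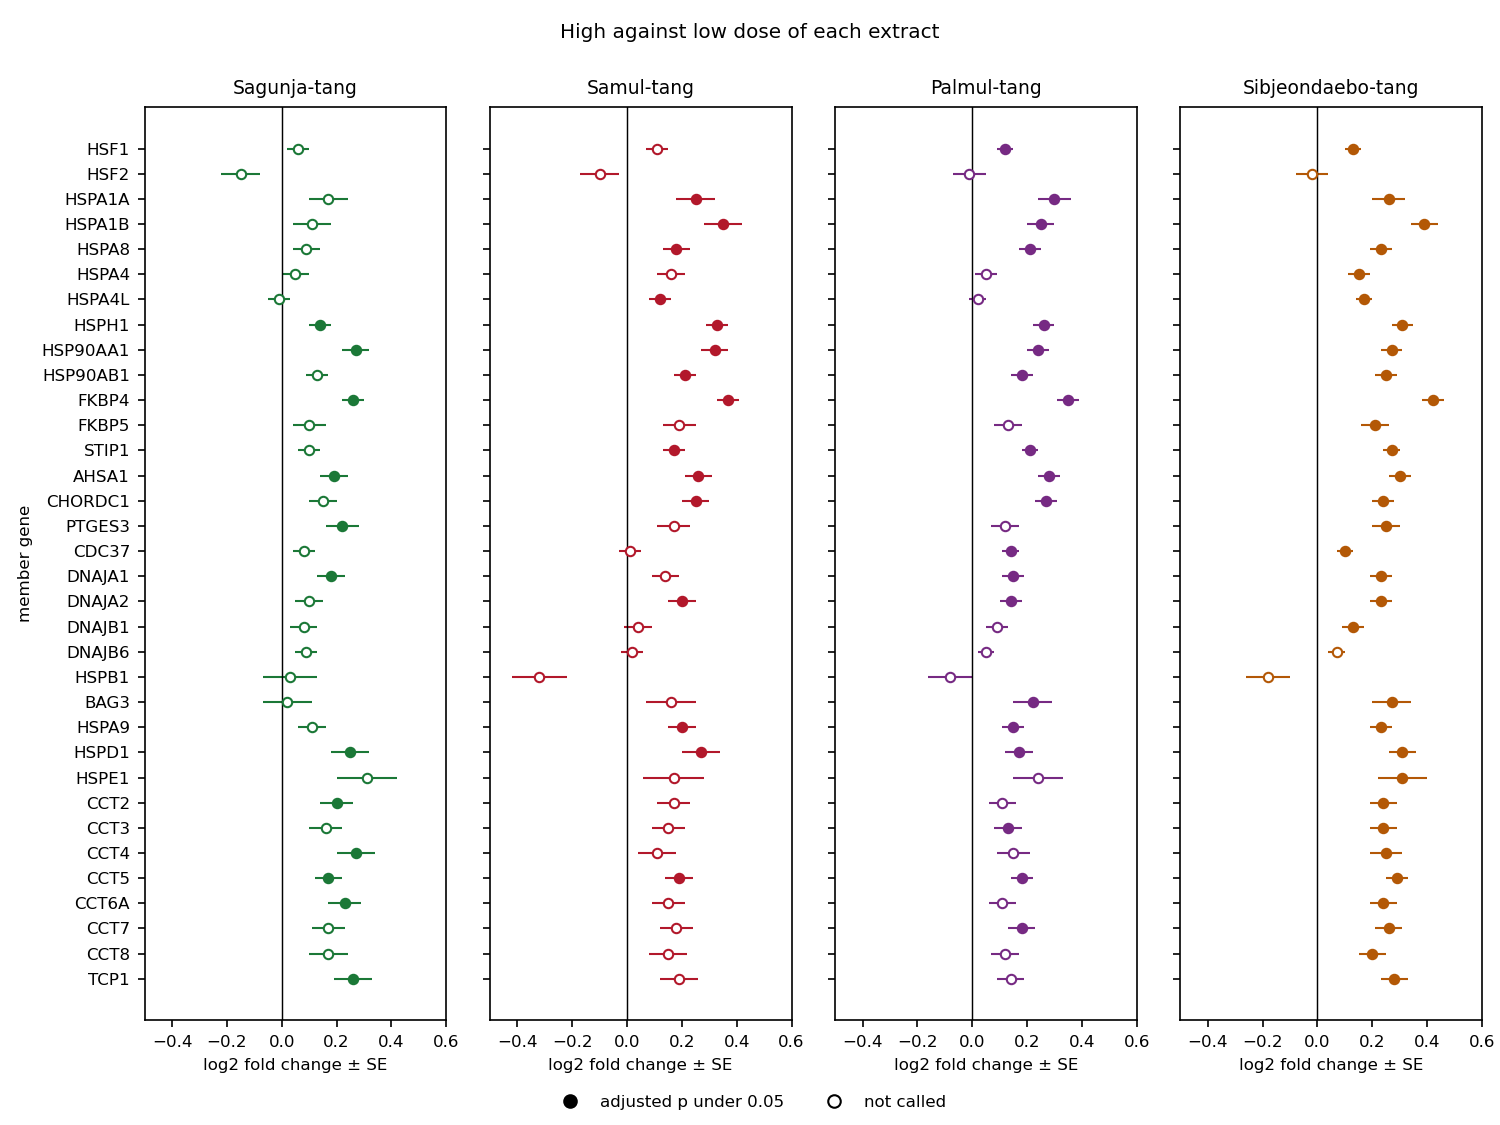
Log2 fold change ± SE of each of the 34 genes (rows) for the high against the low dose, in a panel per extract; filled points have an adjusted p under 0.05. The filled points number 12, 15, 20 and 31 from left to right and all lie above 0, while HSPB1 lies at 0.03, -0.32, -0.08 and -0.18 without being called.

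**Figure D3:**
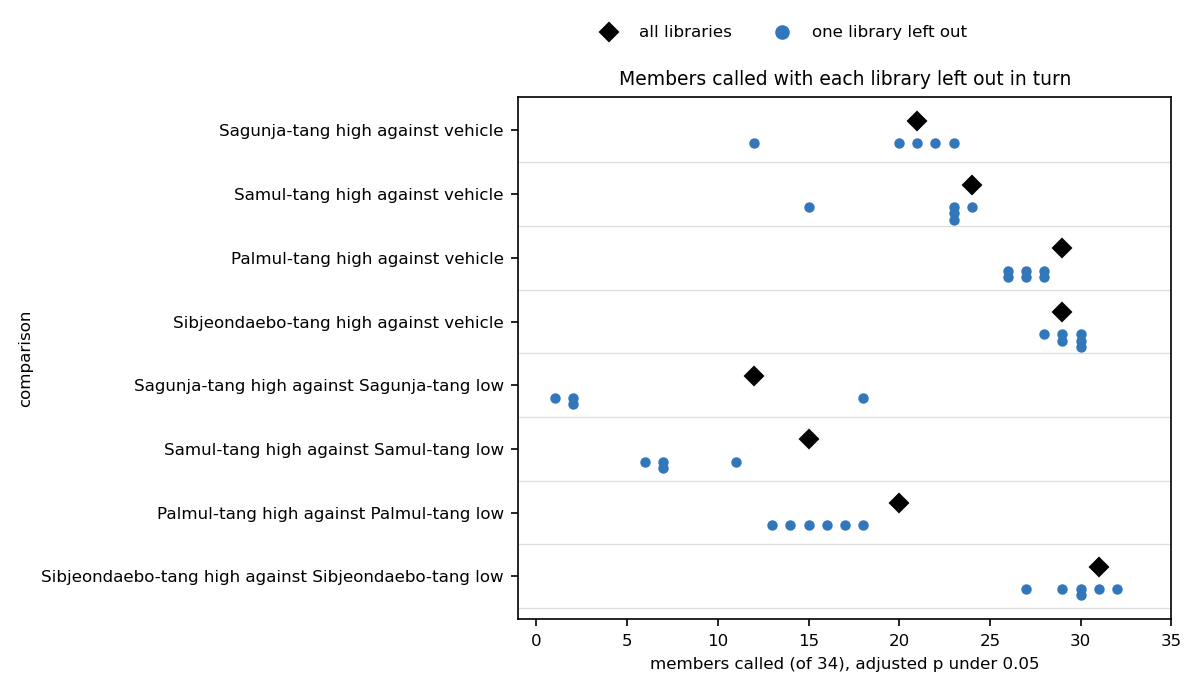
Members called of 34 in the 8 comparisons of the high dose with vehicle or with the low dose, with all libraries (diamonds) and with each library left out in turn (circles). The circles for Palmul-tang and Sibjeondaebo-tang against vehicle lie between 26 and 30, while those for Sagunja-tang high against low lie between 1 and 18.

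Levels per length set the genes in order. In vehicle HSPA8, the constitutive HSP70, stood highest at 1156 CPM per kb of its longest GENCODE 29 transcript, followed by HSP90AB1 at 718, HSPD1 at 414, HSP90AA1 at 326 and HSPE1 at 242 CPM per kb. The TRiC subunits lay between 89.4 CPM per kb for CCT4 and 178 CPM per kb for CCT7. HSPA1A and HSPA1B stood at 110 CPM per kb each in vehicle, read without any heat treatment. HSF2 was lowest at 5.68 CPM per kb, and the other heat shock factor, HSF1, stood at 31.4 CPM per kb.

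HSF1, the main heat-responsive transcription factor (ENSG00000185122, hg38 chromosome 8, 144291591 to 144314722), was lower than vehicle at the low dose of every extract and not called at the high dose of any. HSF1 at the low dose read 98.8 and 99.7 CPM with Sagunja-tang, 97.2 and 97.0 CPM with Samul-tang, 102, 98.1 and 99.4 CPM with Palmul-tang and 97.4, 101 and 100 CPM with Sibjeondaebo-tang, against 108, 104 and 112 CPM in vehicle. HSF1 at the medium dose read 98.1 and 99.7 CPM with Sagunja-tang, 102 and 101 CPM with Samul-tang, 99.3, 98.1 and 100 CPM with Palmul-tang and 109, 103 and 108 CPM with Sibjeondaebo-tang. HSF1 at the high dose read 104 and 103 CPM with Sagunja-tang, 104 and 106 CPM with Samul-tang, 111, 108 and 107 CPM with Palmul-tang and 108, 106 and 111 CPM with Sibjeondaebo-tang. All 10 low-dose libraries lay below the lowest vehicle library, and the group means were lower by 0.12 to 0.16 on the log2 scale. At the high dose the libraries overlapped vehicle in 3 of the 4 extracts and lay just below it with Sagunja-tang, at -0.06 ± 0.03 (edgeR adjusted p = 0.171). The low-dose difference from vehicle was -0.16 ± 0.03 (edgeR adjusted p = 0.00327) with Samul-tang, a call lost without its low replicate 2 or 3 (-0.15 each) and with no filter on low counts (-0.14), and the call for low Sibjeondaebo-tang, -0.12 ± 0.03 (edgeR adjusted p = 0.00606), was lost at -0.10 without vehicle replicate 3. High against low dose gave 0.13 ± 0.03 (edgeR adjusted p = 0.00233) with Sibjeondaebo-tang. Of the HSF1 values, 81.8% were not whole numbers, so reads shared with other genes entered them.

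HSF2, a second heat shock factor, was not called in any comparison with vehicle or between doses. HSF2 at the low dose read 15.15 and 15.23 CPM with Sagunja-tang, 15.86 and 14.48 CPM with Samul-tang, 14.33, 13.64 and 14.85 CPM with Palmul-tang and 14.62, 15.11 and 15.59 CPM with Sibjeondaebo-tang, against 15.02, 14.48 and 15.53 CPM in vehicle. HSF2 at the medium dose read 14.01 and 14.72 CPM with Sagunja-tang, 14.77 and 14.99 CPM with Samul-tang, 14.54, 14.85 and 15.13 CPM with Palmul-tang and 14.88, 15.47 and 14.81 CPM with Sibjeondaebo-tang. HSF2 at the high dose read 14.56 and 12.95 CPM with Sagunja-tang, 13.73 and 14.49 CPM with Samul-tang, 12.87, 14.40 and 15.21 CPM with Palmul-tang and 14.38, 15.04 and 15.42 CPM with Sibjeondaebo-tang. The groups overlapped vehicle in all 12 comparisons. The log2 fold changes against vehicle ran between -0.13 and 0.02 with SEs of 0.06 to 0.07.

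HSPA1A and HSPA1B are neighbouring, near-identical genes for the heat-inducible HSP70 (hg38 chromosome 6, 31815464 to 31817946 and 31827735 to 31830255). All of their values were fractional, so the split of reads between them is an estimate. HSPA1A at the low dose read 262 and 278 CPM with Sagunja-tang, 258 and 280 CPM with Samul-tang, 314, 255 and 279 CPM with Palmul-tang and 300, 284 and 281 CPM with Sibjeondaebo-tang, against 267, 271 and 282 CPM in vehicle. HSPA1A at the medium dose read 279 and 288 CPM with Sagunja-tang, 289 and 277 CPM with Samul-tang, 309, 288 and 296 CPM with Palmul-tang and 322, 306 and 286 CPM with Sibjeondaebo-tang. HSPA1A at the high dose read 317 and 289 CPM with Sagunja-tang, 322 and 317 CPM with Samul-tang, 364, 348 and 335 CPM with Palmul-tang and 360, 349 and 330 CPM with Sibjeondaebo-tang. Every high-dose library lay above every vehicle library, and the low-dose libraries overlapped vehicle in all 4 extracts. The rise was called in 3 extracts, at 0.34 ± 0.06 with Sibjeondaebo-tang, 0.35 ± 0.06 with Palmul-tang and 0.23 ± 0.06 with Samul-tang (0.21 and uncalled without Samul-tang high replicate 2), and was 0.15 ± 0.06 (edgeR adjusted p = 0.0697), not called, with Sagunja-tang.

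HSPA1B was likewise highest at the high dose. HSPA1B at the low dose read 303 and 301 CPM with Sagunja-tang, 292 and 288 CPM with Samul-tang, 327, 318 and 293 CPM with Palmul-tang and 303, 284 and 284 CPM with Sibjeondaebo-tang, against 288, 277 and 270 CPM in vehicle. HSPA1B at the medium dose read 298 and 299 CPM with Sagunja-tang, 318 and 309 CPM with Samul-tang, 336, 325 and 294 CPM with Palmul-tang and 339, 315 and 312 CPM with Sibjeondaebo-tang. HSPA1B at the high dose read 336 and 316 CPM with Sagunja-tang, 390 and 351 CPM with Samul-tang, 407, 361 and 345 CPM with Palmul-tang and 389, 375 and 379 CPM with Sibjeondaebo-tang. All high-dose libraries lay above vehicle and above the low dose of their extract. Against vehicle HSPA1B rose by 0.45 ± 0.05 (edgeR adjusted p = 3.37e-07) with Sibjeondaebo-tang, 0.41 ± 0.05 (edgeR adjusted p = 2.10e-06) with Palmul-tang, 0.41 ± 0.06 (edgeR adjusted p = 1.43e-05) with Samul-tang and 0.23 ± 0.06 (edgeR adjusted p = 0.00398) with Sagunja-tang, where the value without high replicate 2 was 0.19 (edgeR adjusted p = 0.0871).

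With the counts of the pair summed before the fit, an alternative chosen after seeing the data, the high dose still rose with all 4 extracts. The summed level was 748, 724 and 709 CPM with Sibjeondaebo-tang, 771, 709 and 680 CPM with Palmul-tang, 712 and 668 CPM with Samul-tang and 653 and 605 CPM with Sagunja-tang, against 555, 549 and 551 CPM in vehicle. These are rises of 0.40 ± 0.05, 0.38 ± 0.05, 0.32 ± 0.05 and 0.19 ± 0.05 on the log2 scale. The largest of the 4 edgeR adjusted p was 0.00693, for Sagunja-tang. The sum was fitted with all libraries only. Without Sagunja-tang high replicate 2 the single genes gave 0.09 for HSPA1A (0.15 with all libraries) and 0.19 for HSPA1B (0.23 with all libraries). At the medium dose the summed pair was called higher with Sibjeondaebo-tang (0.18 ± 0.05) and Palmul-tang (0.16 ± 0.05), and at the low dose with 0 of the 4 extracts. The calls of HSPA1B alone with medium Samul-tang and low Palmul-tang were lost in the sum, at 0.11 each.

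HSPA8, the abundant constitutive HSP70 (hg38 chromosome 11, 123057489 to 123063230, minus strand), whose 3-unit promoter motifs are printed above, rose with Palmul-tang and Sibjeondaebo-tang, at the high dose. HSPA8 at the low dose read 2630 and 2694 CPM with Sagunja-tang, 2602 and 2692 CPM with Samul-tang, 2839, 2683 and 2851 CPM with Palmul-tang and 2824, 2823 and 2686 CPM with Sibjeondaebo-tang, against 2794, 2848 and 2897 CPM in vehicle. HSPA8 at the medium dose read 2593 and 2781 CPM with Sagunja-tang, 2748 and 2899 CPM with Samul-tang, 2897, 2817 and 3014 CPM with Palmul-tang and 2890, 2918 and 2764 CPM with Sibjeondaebo-tang. HSPA8 at the high dose read 2791 and 2867 CPM with Sagunja-tang, 2922 and 3076 CPM with Samul-tang, 3238, 3210 and 3227 CPM with Palmul-tang and 3374, 3247 and 3165 CPM with Sibjeondaebo-tang. High-dose libraries of the other 3 extracts lay above vehicle, and those of Sagunja-tang overlapped it. The rise was 0.20 ± 0.04 (edgeR adjusted p = 1.32e-04) with Sibjeondaebo-tang and 0.18 ± 0.04 (edgeR adjusted p = 5.32e-04) with Palmul-tang, while Samul-tang gave 0.08 ± 0.04 (edgeR adjusted p = 0.191) and Sagunja-tang -0.01 ± 0.04 (edgeR adjusted p = 0.902), neither called.

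HSPH1, the HSP110 that releases ADP from HSP70 (hg38 chromosome 13, 31134974 to 31162388, minus strand), was higher at the high than at the low dose of all 4 extracts. HSPH1 at the low dose read 471 and 452 CPM with Sagunja-tang, 450 and 447 CPM with Samul-tang, 493, 485 and 479 CPM with Palmul-tang and 490, 462 and 467 CPM with Sibjeondaebo-tang, against 485, 490 and 469 CPM in vehicle. HSPH1 at the medium dose read 469 and 456 CPM with Sagunja-tang, 473 and 487 CPM with Samul-tang, 536, 494 and 502 CPM with Palmul-tang and 505, 485 and 496 CPM with Sibjeondaebo-tang. HSPH1 at the high dose read 508 and 510 CPM with Sagunja-tang, 567 and 560 CPM with Samul-tang, 608, 565 and 576 CPM with Palmul-tang and 608, 568 and 585 CPM with Sibjeondaebo-tang. Every high-dose library lay above every vehicle and every low-dose library of its extract. High against low dose gave 0.31 ± 0.04 (edgeR adjusted p = 1.61e-07) with Sibjeondaebo-tang, 0.26 ± 0.04 (edgeR adjusted p = 4.93e-06) with Palmul-tang, 0.33 ± 0.04 (edgeR adjusted p = 6.51e-06) with Samul-tang and 0.14 ± 0.04 (edgeR adjusted p = 0.0444) with Sagunja-tang. That last call was lost when any of the 4 Sagunja-tang libraries was left out, at 0.14 without high replicate 2, 0.13 without high replicate 3, 0.16 without low replicate 2 and 0.11 without low replicate 3. Against vehicle the high dose of Sagunja-tang gave 0.08 ± 0.04 (edgeR adjusted p = 0.109), not called.

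The related exchange factors moved less. HSPA4 rose with Sibjeondaebo-tang alone at the high dose, where it read 279, 262 and 272 CPM against 247, 243 and 238 CPM in vehicle, a rise of 0.16 ± 0.04 (edgeR adjusted p = 0.00585). HSPA4L read 102, 102 and 102 CPM with high-dose Sibjeondaebo-tang against 89.7, 87.8 and 90.4 CPM in vehicle, with all treated libraries above all vehicle libraries. That is 0.19 ± 0.03 (edgeR adjusted p = 1.27e-05), and HSPA4L was also called higher with Samul-tang at 0.15 ± 0.03 and with Palmul-tang at 0.09 ± 0.03. The Palmul-tang call was lost at 0.08 without vehicle replicate 2 and at 0.09 without its own replicate 2.

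HSP90AA1, the inducible cytosolic HSP90 (hg38 chromosome 14, 102080738 to 102139699, minus strand), rose at the high dose of every extract, against vehicle as well as against the low dose. HSP90AA1 at the low dose read 1089 and 1088 CPM with Sagunja-tang, 1029 and 1047 CPM with Samul-tang, 1088, 1111 and 1140 CPM with Palmul-tang and 1176, 1094 and 1107 CPM with Sibjeondaebo-tang, against 1165, 1152 and 1118 CPM in vehicle. HSP90AA1 at the medium dose read 1130 and 1070 CPM with Sagunja-tang, 1141 and 1128 CPM with Samul-tang, 1181, 1156 and 1187 CPM with Palmul-tang and 1153, 1169 and 1118 CPM with Sibjeondaebo-tang. HSP90AA1 at the high dose read 1442 and 1186 CPM with Sagunja-tang, 1303 and 1281 CPM with Samul-tang, 1309, 1322 and 1323 CPM with Palmul-tang and 1394, 1348 and 1317 CPM with Sibjeondaebo-tang. Every high-dose library lay above vehicle and above the low dose, and the 2 high-dose Sagunja-tang libraries were the farthest apart of any group. The high set against the low dose gave 0.27 ± 0.04 (edgeR adjusted p = 4.74e-05) with Sibjeondaebo-tang, 0.24 ± 0.04 (edgeR adjusted p = 3.21e-04) with Palmul-tang and 0.32 ± 0.05 (edgeR adjusted p = 3.17e-04) with Samul-tang. With Sagunja-tang it gave 0.27 ± 0.05 (edgeR adjusted p = 0.00318), which became 0.12 (edgeR adjusted p = 0.316) without high replicate 2. Against vehicle the Sagunja-tang rise of 0.20 ± 0.05 became 0.05 without that library, and the Samul-tang rise of 0.17 ± 0.05 became 0.16 and lost its call without Samul-tang high replicate 2.

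HSP90AB1, the constitutive HSP90 (hg38 chromosome 6, 44246166 to 44253888), was higher at the high dose of Samul-tang, Palmul-tang and Sibjeondaebo-tang. HSP90AB1 at the low dose read 1931 and 1832 CPM with Sagunja-tang, 1901 and 1847 CPM with Samul-tang, 1981, 1922 and 1905 CPM with Palmul-tang and 1961, 1874 and 1879 CPM with Sibjeondaebo-tang, against 1955, 1958 and 1844 CPM in vehicle. HSP90AB1 at the medium dose read 1880 and 1882 CPM with Sagunja-tang, 2029 and 1978 CPM with Samul-tang, 2028, 1984 and 1948 CPM with Palmul-tang and 2057, 2016 and 1993 CPM with Sibjeondaebo-tang. HSP90AB1 at the high dose read 2120 and 1997 CPM with Sagunja-tang, 2225 and 2108 CPM with Samul-tang, 2281, 2130 and 2156 CPM with Palmul-tang and 2368, 2226 and 2226 CPM with Sibjeondaebo-tang. All high-dose libraries lay above vehicle. The rise was 0.24 ± 0.04 (edgeR adjusted p = 7.46e-06) with Sibjeondaebo-tang and 0.19 ± 0.04 (edgeR adjusted p = 2.62e-04) with Palmul-tang. With Samul-tang it was 0.17 ± 0.04 (edgeR adjusted p = 0.00204), and 0.13 without a call when its high replicate 2 was left out, and Sagunja-tang gave 0.10 ± 0.04 (edgeR adjusted p = 0.0535), not called.

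FKBP4, the peptidyl-prolyl isomerase FKBP52 that couples steroid receptors to HSP90 (hg38 chromosome 12, 2794953 to 2805423), rose at the high dose of all 4 extracts and kept its call with every library left out, against vehicle and against the low dose. FKBP4 at the low dose read 220 and 222 CPM with Sagunja-tang, 215 and 221 CPM with Samul-tang, 239, 225 and 223 CPM with Palmul-tang and 233, 222 and 223 CPM with Sibjeondaebo-tang, against 231, 225 and 221 CPM in vehicle. FKBP4 at the medium dose read 232 and 230 CPM with Sagunja-tang, 244 and 239 CPM with Samul-tang, 242, 244 and 238 CPM with Palmul-tang and 254, 241 and 249 CPM with Sibjeondaebo-tang. FKBP4 at the high dose read 276 and 253 CPM with Sagunja-tang, 290 and 274 CPM with Samul-tang, 301, 291 and 284 CPM with Palmul-tang and 308, 299 and 302 CPM with Sibjeondaebo-tang. The high-dose libraries of each extract lay above all of its low-dose and all vehicle libraries, and the low-dose libraries overlapped vehicle. The high set against the low dose gave 0.42 ± 0.04 (edgeR adjusted p = 7.18e-10) with Sibjeondaebo-tang, 0.35 ± 0.04 (edgeR adjusted p = 4.14e-08) with Palmul-tang, 0.37 ± 0.04 (edgeR adjusted p = 1.05e-06) with Samul-tang and 0.26 ± 0.04 (edgeR adjusted p = 5.31e-04) with Sagunja-tang. Against vehicle the rises were 0.43 ± 0.04, 0.37 ± 0.04, 0.32 ± 0.04 and 0.23 ± 0.04 in the same order. With only the Sagunja-tang high and low groups or only the Sagunja-tang high and vehicle groups in the fit, FKBP4 was not called.

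FKBP5, the paralogue FKBP51, which is a known target of the glucocorticoid receptor, was not called against vehicle at any dose. FKBP5 at the low dose read 60.0 and 62.4 CPM with Sagunja-tang, 61.6 and 58.1 CPM with Samul-tang, 66.4, 60.8 and 61.4 CPM with Palmul-tang and 65.3, 60.6 and 59.7 CPM with Sibjeondaebo-tang, against 65.3, 70.9 and 62.3 CPM in vehicle. FKBP5 at the medium dose read 63.3 and 64.0 CPM with Sagunja-tang, 64.9 and 64.3 CPM with Samul-tang, 65.6, 63.3 and 66.6 CPM with Palmul-tang and 68.6, 62.1 and 64.6 CPM with Sibjeondaebo-tang. FKBP5 at the high dose read 62.9 and 68.2 CPM with Sagunja-tang, 68.8 and 67.7 CPM with Samul-tang, 71.9, 67.9 and 66.6 CPM with Palmul-tang and 74.3, 71.6 and 68.3 CPM with Sibjeondaebo-tang. The high-dose libraries overlapped vehicle in all 4 extracts. High against low dose was called with Sibjeondaebo-tang alone, at 0.21 ± 0.05 (edgeR adjusted p = 0.00212), and was 0.19 ± 0.06 (edgeR adjusted p = 0.0541), 0.13 ± 0.05 (edgeR adjusted p = 0.0781) and 0.10 ± 0.06 (edgeR adjusted p = 0.331) with Samul-tang, Palmul-tang and Sagunja-tang in that order.

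STIP1, the HOP adaptor between HSP70 and HSP90 (hg38 chromosome 11, 64185272 to 64204543), was called below vehicle at the low dose of every extract and above it at the high dose of Palmul-tang and Sibjeondaebo-tang. After removal of the GC and length trends the high-dose calls were lost, at 0.02 with Palmul-tang and 0.05 with Sibjeondaebo-tang. STIP1 at the low dose read 321 and 334 CPM with Sagunja-tang, 317 and 329 CPM with Samul-tang, 337, 325 and 337 CPM with Palmul-tang and 334, 331 and 329 CPM with Sibjeondaebo-tang, against 351, 358 and 377 CPM in vehicle. STIP1 at the medium dose read 327 and 339 CPM with Sagunja-tang, 330 and 339 CPM with Samul-tang, 350, 345 and 358 CPM with Palmul-tang and 357, 347 and 339 CPM with Sibjeondaebo-tang. STIP1 at the high dose read 345 and 357 CPM with Sagunja-tang, 362 and 367 CPM with Samul-tang, 396, 380 and 381 CPM with Palmul-tang and 412, 390 and 395 CPM with Sibjeondaebo-tang. All 10 low-dose libraries lay below vehicle. The low-dose difference from vehicle was -0.16 ± 0.04 (edgeR adjusted p = 0.00337) with Samul-tang and -0.14 ± 0.04 (edgeR adjusted p = 0.00593) with Sagunja-tang, and these calls were lost without the low replicate 2 of the extract, at -0.13 and -0.10. The high set against the low dose gave 0.27 ± 0.03 (edgeR adjusted p = 4.43e-07) with Sibjeondaebo-tang and 0.21 ± 0.03 (edgeR adjusted p = 3.35e-05) with Palmul-tang. The call above vehicle with high-dose Palmul-tang, at 0.09 ± 0.03, was lost without vehicle replicate 1 (0.07), vehicle replicate 2 (0.08), its own replicate 1 (0.07) or its own replicate 3 (0.09), and that with low Sibjeondaebo-tang, at -0.13 ± 0.03, was lost at -0.10 without vehicle replicate 3.

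AHSA1, which stimulates the ATPase of HSP90, and CHORDC1, an HSP90 cochaperone known to be heat-inducible, also rose against vehicle at the high dose of all 4 extracts. The Sagunja-tang call of AHSA1 (0.19 ± 0.04) was lost without high replicate 2 (0.13) and after removal of the GC and length trends (0.03), and that of CHORDC1 (0.14 ± 0.05) without high replicate 2 (0.13). AHSA1 at the low dose read 88.7 and 90.9 CPM with Sagunja-tang, 85.2 and 85.6 CPM with Samul-tang, 89.8, 88.6 and 88.4 CPM with Palmul-tang and 95.4, 85.7 and 90.6 CPM with Sibjeondaebo-tang, against 92.4, 89.7 and 86.9 CPM in vehicle. AHSA1 at the medium dose read 85.8 and 89.8 CPM with Sagunja-tang, 93.1 and 93.7 CPM with Samul-tang, 92.6, 95.8 and 93.5 CPM with Palmul-tang and 92.0, 99.5 and 93.8 CPM with Sibjeondaebo-tang. AHSA1 at the high dose read 108 and 97.6 CPM with Sagunja-tang, 101 and 103 CPM with Samul-tang, 106, 110 and 107 CPM with Palmul-tang and 110, 113 and 112 CPM with Sibjeondaebo-tang. The high-dose libraries lay above vehicle and above the low dose in each extract. High against low dose was 0.30 ± 0.04 (edgeR adjusted p = 8.93e-07) with Sibjeondaebo-tang, 0.28 ± 0.04 (edgeR adjusted p = 9.93e-06) with Palmul-tang and 0.26 ± 0.05 (edgeR adjusted p = 5.95e-04) with Samul-tang. The Sagunja-tang value of 0.19 ± 0.05 became 0.12 without high replicate 2, 0.17 without low replicate 2 and 0.21 without low replicate 3, and was not called in any of these.

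CHORDC1 had the longest unbroken run of heat shock units of the promoters printed above. CHORDC1 at the low dose read 74.1 and 77.1 CPM with Sagunja-tang, 73.7 and 75.8 CPM with Samul-tang, 77.5, 76.4 and 78.8 CPM with Palmul-tang and 82.3, 74.7 and 73.9 CPM with Sibjeondaebo-tang, against 74.8, 77.7 and 77.1 CPM in vehicle. CHORDC1 at the medium dose read 76.6 and 79.1 CPM with Sagunja-tang, 80.1 and 80.1 CPM with Samul-tang, 84.0, 77.8 and 82.7 CPM with Palmul-tang and 78.3, 79.0 and 73.3 CPM with Sibjeondaebo-tang. CHORDC1 at the high dose read 85.0 and 83.3 CPM with Sagunja-tang, 89.3 and 88.6 CPM with Samul-tang, 95.9, 93.8 and 91.2 CPM with Palmul-tang and 94.5, 92.3 and 86.0 CPM with Sibjeondaebo-tang. The high dose stood above vehicle in every library and the low dose overlapped vehicle in every extract. CHORDC1 rose against the low dose by 0.27 ± 0.04 (edgeR adjusted p = 3.33e-05) with Palmul-tang, 0.24 ± 0.04 (edgeR adjusted p = 6.20e-05) with Sibjeondaebo-tang and 0.25 ± 0.05 (edgeR adjusted p = 0.00164) with Samul-tang, the last becoming 0.22 and uncalled without low replicate 2. PTGES3, the p23 cochaperone, rose against vehicle at the high dose by 0.30 ± 0.05 with Sibjeondaebo-tang, 0.19 ± 0.05 with Palmul-tang, 0.22 ± 0.05 with Samul-tang and 0.30 ± 0.05 with Sagunja-tang, where it was 0.18 and still called without high replicate 2. CDC37, which brings kinases to HSP90, was called higher at the high dose against vehicle with Palmul-tang alone, at 0.14 ± 0.03 (edgeR adjusted p = 0.00160), and that value was 0.01 after removal of the trends with GC content and gene length.

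DNAJB1, the HSP40 that partners HSPA1A and a classical heat shock target (hg38 chromosome 19, 14514770 to 14529770, minus strand), differed little from vehicle. DNAJB1 at the low dose read 105 and 106 CPM with Sagunja-tang, 101 and 106 CPM with Samul-tang, 111, 108 and 104 CPM with Palmul-tang and 107, 106 and 106 CPM with Sibjeondaebo-tang, against 107, 104 and 102 CPM in vehicle. DNAJB1 at the medium dose read 104 and 105 CPM with Sagunja-tang, 105 and 107 CPM with Samul-tang, 111, 108 and 106 CPM with Palmul-tang and 113, 107 and 113 CPM with Sibjeondaebo-tang. DNAJB1 at the high dose read 111 and 112 CPM with Sagunja-tang, 107 and 106 CPM with Samul-tang, 121, 111 and 111 CPM with Palmul-tang and 123, 115 and 111 CPM with Sibjeondaebo-tang. The low-dose libraries overlapped vehicle in all 4 extracts. At the high dose DNAJB1 was called with Sibjeondaebo-tang at 0.16 ± 0.04 (edgeR adjusted p = 0.00126) and with Palmul-tang at 0.14 ± 0.04 (edgeR adjusted p = 0.00669). The Palmul-tang call was lost without its replicate 1, at 0.09, and both calls were lost after removal of the GC and length trends, at 0.04 each.

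Of the other J-domain genes, DNAJA1 was called higher at the high dose of all 4 extracts. DNAJA1 at the low dose read 235 and 231 CPM with Sagunja-tang, 228 and 225 CPM with Samul-tang, 234, 242 and 232 CPM with Palmul-tang and 241, 229 and 235 CPM with Sibjeondaebo-tang, against 227, 217 and 202 CPM in vehicle. DNAJA1 at the medium dose read 234 and 231 CPM with Sagunja-tang, 244 and 232 CPM with Samul-tang, 253, 260 and 236 CPM with Palmul-tang and 244, 244 and 236 CPM with Sibjeondaebo-tang. DNAJA1 at the high dose read 281 and 248 CPM with Sagunja-tang, 253 and 247 CPM with Samul-tang, 274, 261 and 249 CPM with Palmul-tang and 274, 273 and 281 CPM with Sibjeondaebo-tang. The libraries of all 12 groups lay above vehicle except those of low-dose Samul-tang, which overlapped it. The rise at the high dose was 0.36 ± 0.04 (edgeR adjusted p = 5.78e-07) with Sibjeondaebo-tang, 0.29 ± 0.05 (edgeR adjusted p = 4.89e-05) with Sagunja-tang (0.20 without high replicate 2), 0.28 ± 0.04 (edgeR adjusted p = 2.97e-05) with Palmul-tang and 0.21 ± 0.05 (edgeR adjusted p = 0.00184) with Samul-tang. DNAJA2 with Samul-tang read 104 and 98.5 CPM at the high dose against 88.0 and 87.7 CPM at the low dose, a rise of 0.20 ± 0.05 (edgeR adjusted p = 0.00695) that lost its call without high replicate 2 (0.16), low replicate 2 (0.20) or low replicate 3 (0.19). DNAJB6, which suppresses aggregation of polyglutamine proteins, differed from vehicle at the high dose by 0.04 to 0.11. Its calls with Sagunja-tang, Palmul-tang and Sibjeondaebo-tang were each lost when vehicle replicate 3 was left out, at 0.07, 0.07 and 0.08 in that order.

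HSPB1, the small heat shock protein HSP27 (ENSG00000106211, hg38 chromosome 7, 76302544 to 76304295), ran against the rest. It was lower than vehicle in all 12 groups of extract and dose. HSPB1 at the low dose read 109 and 123 CPM with Sagunja-tang, 122 and 124 CPM with Samul-tang, 135, 124 and 132 CPM with Palmul-tang and 133, 144 and 124 CPM with Sibjeondaebo-tang, against 147, 160 and 184 CPM in vehicle. HSPB1 at the medium dose read 105 and 131 CPM with Sagunja-tang, 105 and 120 CPM with Samul-tang, 123, 111 and 136 CPM with Palmul-tang and 130, 131 and 122 CPM with Sibjeondaebo-tang. HSPB1 at the high dose read 121 and 114 CPM with Sagunja-tang, 90.4 and 107 CPM with Samul-tang, 120, 118 and 131 CPM with Palmul-tang and 123, 116 and 114 CPM with Sibjeondaebo-tang. All 30 extract libraries lay below the lowest vehicle library, and the vehicle libraries were themselves spread over 147 to 184 CPM. The difference from vehicle at the high dose was -0.73 ± 0.10 (edgeR adjusted p = 3.26e-06) with Samul-tang, -0.48 ± 0.10 (edgeR adjusted p = 3.05e-04) with Sagunja-tang, -0.48 ± 0.08 (edgeR adjusted p = 5.67e-05) with Sibjeondaebo-tang and -0.41 ± 0.08 (edgeR adjusted p = 4.69e-04) with Palmul-tang. At the low dose it was -0.29 ± 0.08 with Sibjeondaebo-tang, -0.33 ± 0.08 with Palmul-tang, -0.41 ± 0.09 with Samul-tang and -0.50 ± 0.10 with Sagunja-tang. Without vehicle replicate 3 these low-dose values were -0.20 with Sibjeondaebo-tang and -0.23 with Palmul-tang, both uncalled, and the high-dose calls held with every library left out. High against low dose was not called with any extract, and was -0.32 ± 0.10 (edgeR adjusted p = 0.0586) with Samul-tang. The mitochondrial share of counts was 5.71 to 8.83% with extracts and 8.69 to 11.39% in vehicle, lower with extracts but with an overlap that HSPB1 did not show. Its part in the HSPB1 difference was not tested.

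BAG3, the cochaperone that links HSP70 to small heat shock proteins and to autophagy (hg38 chromosome 10, 119651370 to 119677819), had a lower mean than vehicle in all 12 groups and was called lower in 10. BAG3 at the low dose read 42.5 and 47.4 CPM with Sagunja-tang, 46.7 and 46.1 CPM with Samul-tang, 51.8, 45.1 and 50.5 CPM with Palmul-tang and 46.4, 48.0 and 44.7 CPM with Sibjeondaebo-tang, against 58.5, 63.8 and 65.9 CPM in vehicle. BAG3 at the medium dose read 44.7 and 51.0 CPM with Sagunja-tang, 48.2 and 51.7 CPM with Samul-tang, 47.9, 47.6 and 53.7 CPM with Palmul-tang and 55.4, 49.9 and 49.1 CPM with Sibjeondaebo-tang. BAG3 at the high dose read 41.3 and 49.9 CPM with Sagunja-tang, 49.8 and 53.6 CPM with Samul-tang, 58.3, 56.3 and 57.1 CPM with Palmul-tang and 60.9, 53.1 and 53.9 CPM with Sibjeondaebo-tang. All medium- and low-dose libraries lay below vehicle, and high-dose Sibjeondaebo-tang overlapped it. The fall at the low dose was -0.48 ± 0.08 (edgeR adjusted p = 2.37e-04) with Sagunja-tang, -0.44 ± 0.08 (edgeR adjusted p = 7.90e-04) with Samul-tang, -0.44 ± 0.07 (edgeR adjusted p = 1.60e-04) with Sibjeondaebo-tang and -0.35 ± 0.07 (edgeR adjusted p = 0.00132) with Palmul-tang. At the high dose it was -0.46 ± 0.08 (edgeR adjusted p = 9.15e-05) with Sagunja-tang and -0.28 ± 0.08 (edgeR adjusted p = 0.0104) with Samul-tang, where it became -0.23 without a call when Samul-tang high replicate 2 was left out. Palmul-tang and Sibjeondaebo-tang gave -0.13 ± 0.07 (edgeR adjusted p = 0.163) and -0.16 ± 0.07 (edgeR adjusted p = 0.0702), not called. Relative to the low dose, high-dose BAG3 rose by 0.27 ± 0.07 (edgeR adjusted p = 0.00463) with Sibjeondaebo-tang and by 0.22 ± 0.07 (edgeR adjusted p = 0.0364) with Palmul-tang, where the call was lost without high replicate 1 (0.21), high replicate 2 (0.23), high replicate 3 (0.21), low replicate 2 (0.15) or low replicate 3 (0.24).

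**Figure D4:**
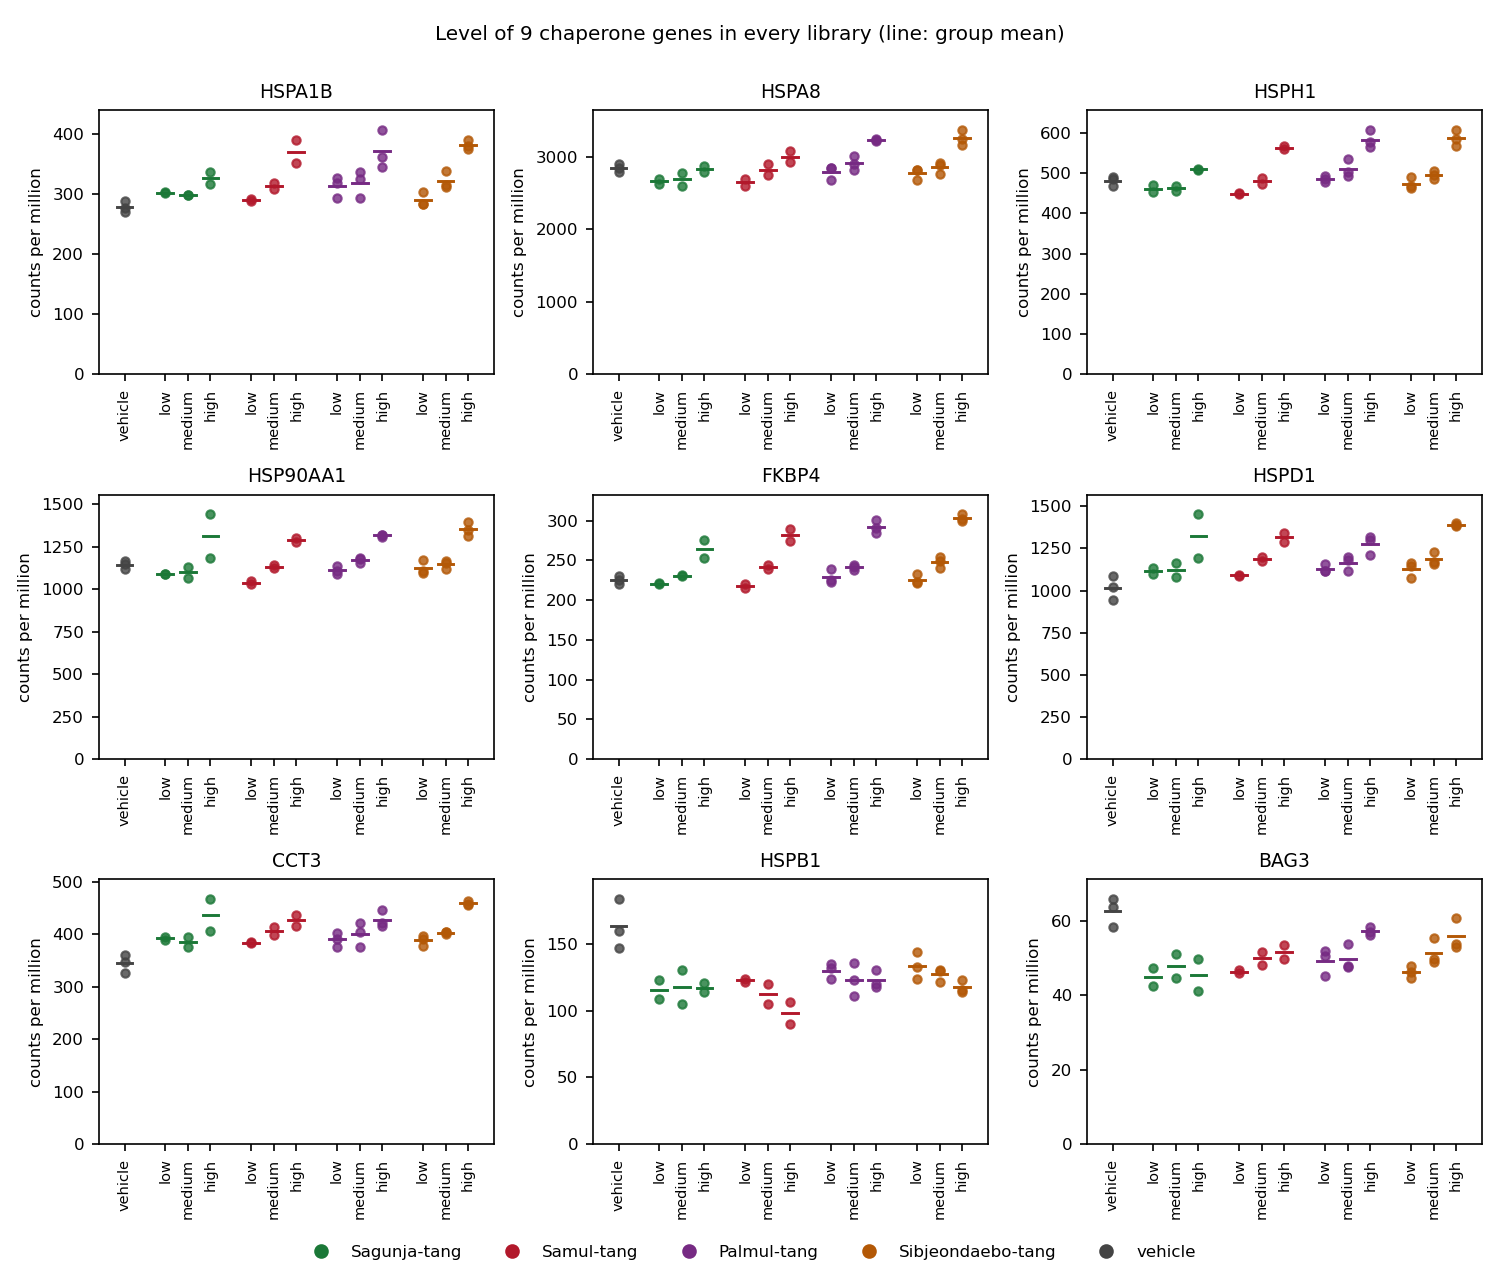
CPM of 9 genes in each library (points, with a line at the group mean), with vehicle at the left and the low, medium and high dose of each extract to its right. FKBP4, HSPH1 and HSP90AA1 step up at the high dose to 253 to 308, 508 to 608 and 1186 to 1442 CPM, while HSPB1 lies at 90.4 to 144 CPM in all extract groups and at 147 to 184 CPM in vehicle.

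HSPD1 and HSPE1 encode the mitochondrial chaperonin HSP60 and its lid HSP10, and the annotated span of HSPE1 lies within that of HSPD1 on the opposite strand of chromosome 2 (hg38, 197486581 to 197516737 on the minus strand and 197499994 to 197503457 on the plus strand). HSPD1 at the low dose read 1132 and 1098 CPM with Sagunja-tang, 1089 and 1090 CPM with Samul-tang, 1118, 1156 and 1114 CPM with Palmul-tang and 1145, 1072 and 1161 CPM with Sibjeondaebo-tang, against 1089, 1019 and 942 CPM in vehicle. HSPD1 at the medium dose read 1166 and 1082 CPM with Sagunja-tang, 1202 and 1175 CPM with Samul-tang, 1183, 1197 and 1116 CPM with Palmul-tang and 1172, 1158 and 1230 CPM with Sibjeondaebo-tang. HSPD1 at the high dose read 1452 and 1196 CPM with Sagunja-tang, 1344 and 1287 CPM with Samul-tang, 1315, 1298 and 1209 CPM with Palmul-tang and 1381, 1389 and 1403 CPM with Sibjeondaebo-tang. Every high-dose library lay above every vehicle library and above the low dose of its extract. HSPD1 rose against vehicle by 0.45 ± 0.05 (edgeR adjusted p = 3.14e-07) with Sibjeondaebo-tang, 0.38 ± 0.06 (edgeR adjusted p = 2.35e-05) with Sagunja-tang (0.24 without high replicate 2), 0.37 ± 0.06 (edgeR adjusted p = 4.63e-05) with Samul-tang and 0.32 ± 0.05 (edgeR adjusted p = 5.01e-05) with Palmul-tang, and these 4 calls held with each library left out. The high set against the low dose gave 0.31 ± 0.05 (edgeR adjusted p = 9.03e-05) with Sibjeondaebo-tang, which also held. The calls between doses in the other extracts did not: without high replicate 2 the Sagunja-tang value was 0.10 and the Samul-tang value 0.23, and without high replicate 1 the Palmul-tang value was 0.15, all uncalled. They were also uncalled without Sagunja-tang low replicate 2 (0.26), Sagunja-tang low replicate 3 (0.23), Samul-tang low replicate 2 (0.26), Samul-tang low replicate 3 (0.26), Palmul-tang low replicate 1 (0.17), Palmul-tang high replicate 2 (0.16), Palmul-tang low replicate 2 (0.18) or Palmul-tang low replicate 3 (0.16).

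HSPE1 was less even. HSPE1 at the low dose read 244 and 252 CPM with Sagunja-tang, 225 and 230 CPM with Samul-tang, 244, 270 and 228 CPM with Palmul-tang and 256, 259 and 233 CPM with Sibjeondaebo-tang, against 231, 214 and 244 CPM in vehicle. HSPE1 at the medium dose read 208 and 263 CPM with Sagunja-tang, 271 and 221 CPM with Samul-tang, 237, 294 and 244 CPM with Palmul-tang and 261, 282 and 228 CPM with Sibjeondaebo-tang. HSPE1 at the high dose read 337 and 277 CPM with Sagunja-tang, 260 and 251 CPM with Samul-tang, 272, 297 and 306 CPM with Palmul-tang and 322, 294 and 310 CPM with Sibjeondaebo-tang. The high-dose libraries all lay above vehicle, and the medium and low doses overlapped it. The rise was 0.43 ± 0.09 (edgeR adjusted p = 6.51e-04) with Sibjeondaebo-tang, 0.34 ± 0.09 (edgeR adjusted p = 0.00594) with Palmul-tang and 0.42 ± 0.10 (edgeR adjusted p = 0.00229) with Sagunja-tang, the last becoming 0.27 (edgeR adjusted p = 0.134) without high replicate 2, and Samul-tang gave 0.15 ± 0.10 (edgeR adjusted p = 0.304). HSPA9, the mitochondrial HSP70 mortalin, rose at the high dose by 0.28 ± 0.04 with Sibjeondaebo-tang, 0.23 ± 0.04 with Palmul-tang, 0.22 ± 0.04 with Samul-tang and 0.18 ± 0.04 with Sagunja-tang, where it was 0.12 and uncalled without high replicate 2. All values of HSPD1 and HSPE1 were fractional, so reads shared with other genes entered them.

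The 8 TRiC subunits rose by like amounts. At the high dose all 8 were called higher than vehicle with each extract, by 0.29 to 0.43 on the log2 scale with Sibjeondaebo-tang, 0.20 to 0.32 with Palmul-tang, 0.18 to 0.31 with Samul-tang and 0.25 to 0.39 with Sagunja-tang. Their summed level was 3391 ± 28.6 CPM with high-dose Sibjeondaebo-tang, 3162 ± 80.9 CPM with Palmul-tang, 3130 ± 74.1 CPM with Samul-tang and 3274 ± 385 CPM with Sagunja-tang, against 2636 ± 133 CPM in vehicle (SD, n = 3, 3, 2, 2 and 3). In Sagunja-tang replicate 2 the sum was 3547 CPM and in replicate 3 it was 3002 CPM, both above the highest vehicle library at 2772 CPM. Without that replicate 2 CCT2 and CCT8 were uncalled, at 0.15 and 0.15, and the other subunits remained called. Without Samul-tang high replicate 2 CCT2, CCT4, CCT7 and CCT8 were uncalled, at 0.19, 0.15, 0.19 and 0.19, and CCT4 with Samul-tang was also uncalled without vehicle replicate 2 (0.17), vehicle replicate 3 (0.15) or high replicate 3 (0.21). The Palmul-tang and Sibjeondaebo-tang calls of all 8 held with each library left out.

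CCT2, the beta subunit (hg38 chromosome 12, 69585334 to 69601570), is given as the example of the group. CCT2 at the low dose read 301 and 294 CPM with Sagunja-tang, 289 and 293 CPM with Samul-tang, 302, 315 and 299 CPM with Palmul-tang and 302, 287 and 295 CPM with Sibjeondaebo-tang, against 300, 286 and 271 CPM in vehicle. CCT2 at the medium dose read 299 and 301 CPM with Sagunja-tang, 314 and 301 CPM with Samul-tang, 315, 326 and 297 CPM with Palmul-tang and 316, 298 and 315 CPM with Sibjeondaebo-tang. CCT2 at the high dose read 366 and 315 CPM with Sagunja-tang, 329 and 325 CPM with Samul-tang, 344, 323 and 319 CPM with Palmul-tang and 353, 341 and 350 CPM with Sibjeondaebo-tang. High-dose libraries lay above vehicle, and the low dose overlapped it in all 4 extracts. The rise was 0.29 ± 0.05 (edgeR adjusted p = 1.58e-05) with Sibjeondaebo-tang and 0.20 ± 0.05 (edgeR adjusted p = 0.00114) with Palmul-tang.

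CCT3, the gamma subunit (hg38 chromosome 1, 156308968 to 156367873, minus strand), was above vehicle in all 12 groups. CCT3 at the low dose read 395 and 389 CPM with Sagunja-tang, 383 and 385 CPM with Samul-tang, 391, 403 and 376 CPM with Palmul-tang and 391, 377 and 397 CPM with Sibjeondaebo-tang, against 360, 347 and 327 CPM in vehicle. CCT3 at the medium dose read 394 and 375 CPM with Sagunja-tang, 413 and 398 CPM with Samul-tang, 405, 422 and 375 CPM with Palmul-tang and 400, 404 and 405 CPM with Sibjeondaebo-tang. CCT3 at the high dose read 467 and 407 CPM with Sagunja-tang, 437 and 416 CPM with Samul-tang, 446, 422 and 416 CPM with Palmul-tang and 457, 463 and 456 CPM with Sibjeondaebo-tang. All 30 extract libraries lay above all 3 vehicle libraries. The rise at the high dose was 0.41 ± 0.05 (edgeR adjusted p = 9.03e-08) with Sibjeondaebo-tang and 0.34 ± 0.05 (edgeR adjusted p = 1.14e-05) with Sagunja-tang, where it was 0.24 without high replicate 2. At the low dose it was 0.18 ± 0.05 (edgeR adjusted p = 0.00685) with Palmul-tang and 0.17 ± 0.05 (edgeR adjusted p = 0.00802) with Sibjeondaebo-tang, both lost without vehicle replicate 3, at 0.14 and 0.13.

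TCP1, the alpha subunit, had the largest rise of the 8 against vehicle at the high dose of each extract. TCP1 at the low dose read 320 and 310 CPM with Sagunja-tang, 307 and 318 CPM with Samul-tang, 313, 350 and 311 CPM with Palmul-tang and 323, 309 and 323 CPM with Sibjeondaebo-tang, against 309, 284 and 272 CPM in vehicle. TCP1 at the medium dose read 320 and 314 CPM with Sagunja-tang, 334 and 324 CPM with Samul-tang, 337, 350 and 309 CPM with Palmul-tang and 336, 335 and 338 CPM with Sibjeondaebo-tang. TCP1 at the high dose read 411 and 345 CPM with Sagunja-tang, 362 and 353 CPM with Samul-tang, 374, 353 and 350 CPM with Palmul-tang and 386, 382 and 395 CPM with Sibjeondaebo-tang. The high-dose libraries lay above vehicle in all 4 extracts. The rises at the high dose were 0.43 ± 0.05 (edgeR adjusted p = 6.50e-07) with Sibjeondaebo-tang, 0.32 ± 0.05 (edgeR adjusted p = 6.25e-05) with Palmul-tang, 0.31 ± 0.06 (edgeR adjusted p = 3.30e-04) with Samul-tang and 0.39 ± 0.06 (edgeR adjusted p = 1.74e-05) with Sagunja-tang, the last being 0.26 without high replicate 2. All values of TCP1 were fractional.

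CCT7, the eta subunit, lay above vehicle in all 30 extract libraries. CCT7 at the low dose read 417 and 394 CPM with Sagunja-tang, 390 and 383 CPM with Samul-tang, 391, 425 and 377 CPM with Palmul-tang and 408, 391 and 410 CPM with Sibjeondaebo-tang, against 374, 368 and 344 CPM in vehicle. CCT7 at the medium dose read 414 and 398 CPM with Sagunja-tang, 427 and 412 CPM with Samul-tang, 404, 437 and 390 CPM with Palmul-tang and 415, 417 and 430 CPM with Sibjeondaebo-tang. CCT7 at the high dose read 489 and 420 CPM with Sagunja-tang, 464 and 413 CPM with Samul-tang, 459, 452 and 436 CPM with Palmul-tang and 483, 480 and 487 CPM with Sibjeondaebo-tang. The test called the low dose of 2 extracts, Sagunja-tang at 0.16 ± 0.06 and Sibjeondaebo-tang at 0.15 ± 0.05. Both calls were lost without vehicle replicate 2 (0.17 each), without vehicle replicate 3 (0.13 and 0.12) and after removal of the GC and length trends (0.12 and 0.11). The Sagunja-tang call was also lost without its low replicate 2 (0.13) or 3 (0.21), and the Sibjeondaebo-tang call without its low replicate 1 or 3 (0.15 each). Between doses the TRiC genes were called higher at the high dose in 8 of 8 with Sibjeondaebo-tang, 3 of 8 with Palmul-tang, 1 of 8 with Samul-tang and 5 of 8 with Sagunja-tang. Of all genes 15.5, 7.66, 4.10 and 3.33% were called higher there, in the same order. The 5 with Sagunja-tang were CCT2, CCT4, CCT5, CCT6A and TCP1. Without high replicate 2 CCT2 and TCP1 were at 0.08 and 0.13, uncalled, and the others also lost their calls, as given below. CCT5, the epsilon subunit, with Sibjeondaebo-tang read 691, 662 and 676 CPM at the high and 569, 543 and 547 CPM at the low dose, without overlap, a rise of 0.29 ± 0.04 (edgeR adjusted p = 6.97e-06). With Sagunja-tang the CCT5 call between doses, at 0.17 ± 0.05, was lost without high replicate 2 (0.05), low replicate 2 (0.18) or low replicate 3 (0.14), and at 0.15 to 0.16 with RLE scaling, no filter or the GC and length trends removed. With Samul-tang it was 0.19 ± 0.05, lost at 0.16 to 0.20 without any one of its 4 libraries. With Sagunja-tang CCT4 read 327 and 260 CPM at the high and 247 and 239 CPM at the low dose, against 239, 222 and 215 CPM in vehicle, and CCT6A read 546 and 453 CPM at the high and 427 and 427 CPM at the low dose. In both genes the first value of the high dose, from replicate 2, was far above the second, and without it the high against low differences were 0.09 and 0.08, not called.

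Between extracts at the high dose few of the 34 genes were called. Sibjeondaebo-tang against Palmul-tang gave 0 called members with edgeR (0.350% of all genes higher and 3.52% lower), 8 at an unadjusted p under 0.05, and 1 with DESeq2. Its median log2 difference over the members was 0.05, against 0.009 for all genes, and the smallest p of the 34 was that of HSPA4L, with a difference of 0.10 ± 0.03 (edgeR adjusted p = 0.0602). Samul-tang against Sagunja-tang called 2 members higher and 0 lower (3.55% and 1.92% of all genes), with a median of -0.01 against -0.002 for all genes. These were HSPH1, at 567 and 560 CPM with Samul-tang against 508 and 510 CPM with Sagunja-tang, and HSPA4L, at 99.9 and 98.9 CPM with Samul-tang against 89.3 and 92.5 CPM with Sagunja-tang. Their differences were 0.15 ± 0.04 (edgeR adjusted p = 0.0444) and 0.13 ± 0.04 (edgeR adjusted p = 0.0407). Neither call held: without Sagunja-tang replicate 2 the values were 0.14 and 0.10, without Samul-tang replicate 2 they were 0.13 and 0.12, and without Samul-tang replicate 3 they were 0.15 and 0.13, with 0 members called each time. Without Sagunja-tang replicate 3, which leaves its replicate 2 alone, 3 members were called higher and 9 lower. HSPA4L reversed to -0.02 after removal of the GC and length trends. A member missing the threshold between extracts is not thereby shown to be equal in them.

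Other genes of the folding machinery were counted at the high dose from lists that do not overlap the 34. Their counts against vehicle stand beside 20.5% of all genes called higher with Sibjeondaebo-tang, 17.3% with Palmul-tang, 15.0% with Samul-tang and 18.7% with Sagunja-tang, and those between doses beside 15.5, 7.66, 4.10 and 3.33% in the same order. These shares are from the fit with all libraries. The fit without high-dose Sagunja-tang replicate 2 leaves 1 library in that group, so its counts and shares are not given. In that fit fewer genes of every list were called higher than vehicle with Sagunja-tang, and the calls between its doses were lost. The values against vehicle there were 0.33 for PFDN5 (0.50 with all libraries), 0.13 for GRPEL1 (0.23) and 0.06 for BAG2 (0.16). HSF4, a heat shock factor on the heat-inducible or stress-linked list, was at 0.76 (0.83). Of 6 prefoldin subunits, which hand actin and tubulin to TRiC, 5 rose against vehicle with Sibjeondaebo-tang, 4 with Palmul-tang, 2 with Samul-tang and 4 with Sagunja-tang, with 0 falling. PFDN5 averaged 101 ± 5.34 CPM with high-dose Sibjeondaebo-tang and 73.1 ± 6.16 CPM in vehicle (SD, n = 3 each), a rise of 0.46 ± 0.07. VBP1 and PFDN6 rose there by 0.32 ± 0.06 and 0.41 ± 0.07. Between doses 3 of the 6 rose with Sibjeondaebo-tang, 1 with Sagunja-tang and 0 with the others. VBP1 rose between doses by 0.23 ± 0.06 with Sibjeondaebo-tang and 0.26 ± 0.07 with Sagunja-tang (0.07 and uncalled without high replicate 2), while PFDN5 was called in 0 of the 4 extracts, at 0.06 ± 0.07 with Sibjeondaebo-tang.

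Among 9 further genes of mitochondrial folding and proteolysis, 6 rose against vehicle with Sibjeondaebo-tang, 6 with Palmul-tang, 5 with Samul-tang and 3 with Sagunja-tang. High against low dose, 7 rose with Sibjeondaebo-tang, 7 with Palmul-tang, 3 with Samul-tang and 1 with Sagunja-tang. GRPEL1, the exchange factor of HSPA9, averaged 84.5 ± 2.06 CPM at the high dose of Sibjeondaebo-tang and 67.2 ± 2.02 CPM at the low dose (SD, n = 3 each), a rise of 0.33 ± 0.04 (edgeR adjusted p = 1.79e-06), and was called between doses in all 4 extracts. With Sagunja-tang that call was lost without high replicate 2 (0.10), low replicate 2 (0.23) or low replicate 3 (0.18), and with Samul-tang without any one of its 4 libraries, at 0.20 to 0.23. LONP1, the matrix protease, rose against vehicle by 0.33 ± 0.05 and CLPB, a mitochondrial disaggregase, by 0.34 ± 0.05 with Sibjeondaebo-tang.

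Of 12 further HSP90 cochaperones 6 rose against vehicle with Sibjeondaebo-tang, 4 with Palmul-tang, 2 with Samul-tang, close to the share of all genes, and 5 with Sagunja-tang. ST13, the HSP70-interacting protein HIP and named here after its values were seen, was the 1 that fell, with log2 fold changes of -0.12 ± 0.04 with Palmul-tang, -0.14 ± 0.04 with Samul-tang and -0.16 ± 0.04 with Sagunja-tang. Those calls were lost without vehicle replicate 3 with Palmul-tang (-0.09) and Samul-tang (-0.12) and without high replicate 2 with Sagunja-tang (-0.13), Samul-tang (-0.10) and Palmul-tang (-0.11), and with Palmul-tang also without high replicate 1 (-0.10). NUDC, an HSP90-linked protein of the dynein pathway, averaged 238 ± 3.89 CPM with high-dose Sibjeondaebo-tang and 202 ± 3.93 CPM in vehicle (SD, n = 3 each), and rose against the low dose in all 4 extracts, by 0.17 ± 0.05 with Samul-tang to 0.24 ± 0.05 with Sagunja-tang. Without high replicate 2 these became 0.11 with Samul-tang and 0.14 with Sagunja-tang, both uncalled, as they were without low replicate 2 (0.17 and 0.22) and, with Samul-tang, low replicate 3 (0.15). UNC45A, a myosin chaperone, rose against vehicle by 0.41 ± 0.07 with Palmul-tang to 0.60 ± 0.08 with Sagunja-tang (0.47 without its high replicate 2), and was not called between doses in any extract. AARSD1, a further cochaperone gene, rose against vehicle by 0.31 ± 0.08 with Samul-tang (0.29 and uncalled without high replicate 2) to 0.54 ± 0.08 with Sagunja-tang (0.39 without high replicate 2) and was likewise not called between doses.

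Of 14 further J-domain and HSP70 cofactor genes 8 rose with Sibjeondaebo-tang, 5 with Palmul-tang, 4 with Samul-tang and 6 with Sagunja-tang. With all libraries in the fit BAG6, a chaperone of tail-anchored proteins, was the 1 that fell against vehicle, with Sagunja-tang (-0.15 ± 0.04). Without high replicate 2 BAG6 was at -0.06 and uncalled, and which genes of this list fell in that fit is not given. BAG6 was also named after its values were seen. BAG2, an inhibitor of the HSP70-bound ligase CHIP, averaged 90.0 ± 0.495 CPM at the high and 73.3 ± 2.47 CPM at the low dose of Sibjeondaebo-tang (SD, n = 3 each). It rose between doses in all 4 extracts, by 0.30 ± 0.04 with Sibjeondaebo-tang, 0.21 ± 0.04 with Palmul-tang, 0.23 ± 0.05 with Samul-tang and 0.19 ± 0.05 with Sagunja-tang, while BAG3 rose in 2 of the 4. Without high replicate 2 the Sagunja-tang value of BAG2 was 0.08, and it was 0.14 without low replicate 2 and 0.24 without low replicate 3, while the Samul-tang value was 0.19 without low replicate 2 and 0.18 without high replicate 3, all uncalled. Between doses 5 cofactor genes rose with Sibjeondaebo-tang, 3 with Palmul-tang, 3 with Samul-tang and 5 with Sagunja-tang. Those that fell between doses, named after their values were seen, were DNAJB2, a J-domain gene, at -0.34 ± 0.05 with Sibjeondaebo-tang and -0.20 ± 0.05 with Palmul-tang, and DNAJB5, a J-domain gene at 0.923 ± 0.0297 CPM at the high and 1.64 ± 0.129 CPM at the low dose of Sagunja-tang (SD, n = 2 each). The DNAJB5 call was lost when any of the 4 Sagunja-tang libraries was left out, at -0.90 to -0.75. HSPBP1, an HSP70 exchange factor, and DNAJA4 rose with Sibjeondaebo-tang against vehicle by 0.27 ± 0.06 and 0.16 ± 0.05. The DNAJA4 call was lost without vehicle replicate 2 (0.09) or high replicate 2 (0.13). It was also lost after removal of the GC and length trends (0.11) and with only the groups compared (0.17).

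Some genes known for strong responses to heat had few counts. Of 12 heat-inducible or stress-linked genes HSPB8 and CRYAB, both small heat shock proteins, did not pass the filter on low counts. HSPA6, an HSP70 made almost only under heat or proteotoxic stress and named here after its values were seen, read 0.672, 0.306 and 0.542 CPM with high-dose Sibjeondaebo-tang, against 0.350, 0.0575 and 0.200 CPM in vehicle. The groups overlapped, and the fitted difference was 1.34 ± 0.52 (edgeR adjusted p = 0.0395), lost without vehicle replicate 2 (0.87), vehicle replicate 3 (1.35), high replicate 1 (1.09) or high replicate 3, while the high dose of the other 3 extracts gave 0.48 ± 0.64 to 0.91 ± 0.54, not called. Of the 10 tested, 6 rose with Sibjeondaebo-tang, 3 with Palmul-tang, 1 with Samul-tang, below the share of all genes, and 5 with Sagunja-tang. The 1 with Samul-tang was the heat shock factor HSF4, at 0.77 ± 0.11. Between doses 3 rose and 1 fell with Sibjeondaebo-tang, 1 rose with Palmul-tang and 0 with the other 2 extracts. SERPINH1, the collagen chaperone HSP47, rose by 0.19 ± 0.04 with Sibjeondaebo-tang and UBB, a ubiquitin gene, by 0.22 ± 0.05, which was 0.03 and uncalled after removal of the GC and length trends. HSF4, a heat shock factor best known from the lens, averaged 10.2 ± 0.684 CPM with high-dose Sagunja-tang, 9.81 ± 0.658 CPM with Samul-tang and 9.28 ± 0.799 CPM with Palmul-tang, against 5.74 ± 0.302 CPM in vehicle (SD, n = 2, 2, 3 and 3). With high-dose Sibjeondaebo-tang HSF4 was at 5.50 ± 0.646 CPM, against 10.7 ± 1.42 CPM at its low dose (SD, n = 3 each), which is -0.96 ± 0.09 on the log2 scale (edgeR adjusted p = 1.42e-08).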

How the data were processed

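RNA-seq of HT29 cells was quantified per gene. Per the submitters' processing notes, reads were processed with FastQC 0.11.9, Trim Galore 0.6.5, STAR 2.7.3a and RSEM 1.3.3 on hg38, and per the labels' protocols the library kit keeps strand and reads were paired, 100 bases long. The deposited values are the authors' RSEM expected counts, which share ambiguous reads between genes; 9.45% of the values used were not whole. The table's other 240 columns of values were not used.

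Expected counts were rounded, filtered (filterByExpr, minimum count 10, leaving 17432 genes), scaled by TMM and tested with edgeR 4.0.16's quasi-likelihood test (R 4.3.3, limma 3.58.1). The 13 groups of the 33 libraries entered 1 fit with no covariates, which gave all 22 comparisons. P-values were adjusted over all tested genes (Benjamini-Hochberg), with a threshold of 0.05. The script was tested on simulated counts. Alternatives were RLE scaling, DESeq2 1.42.0, no filter, only the groups compared, a replicate block, removal of GC and length trends with and without the block, and each library left out. Summing HSPA1A and HSPA1B was chosen after seeing the data. The 34 genes and the other lists were chosen with earlier results of these data known. Genes given in every library were 16 fixed members and, per comparison, up to 3 further called members with the largest change; each other list gives up to 3 genes, those with the smallest p among the called. HSPA6, ST13, BAG6, DNAJB2 and DNAJB5 were added after their values were seen. Promoter windows are RefSeq's (GRCh38.p14), while gene positions and lengths are from GENCODE 29.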

Additional observations from a re-analysis of the deposited data

How the results depend on the processing

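The direction of all 256 called member results was kept under every alternative run with 1 exception: HSPA4L in Samul-tang high against Sagunja-tang high (0.13 with all libraries) was -0.02 with GC and length trends removed and -0.02 with these removed together with the replicate block. DESeq2 lost 0 of the 256 calls, RLE size factors 3, the replicate block 1, no filter on low counts 30, removal of GC and length trends 31 (19 with the block) and a fit of only the groups compared 58. With HSPA1A and HSPA1B summed, 2 of 18 calls were lost. Of 1405 results with 1 library left out, 289 were no longer called. Apart from the smaller number of libraries in some of these fits, the cause was not tested.

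Counts of members called that moved by over 1.5 times were these. With only the groups compared, the count was 9 for high-dose Sagunja-tang (21 with all groups), 2 for medium Sagunja-tang (6), 7 for medium Samul-tang (11), 9 for medium Palmul-tang (15) and 4 for low Palmul-tang (9) against vehicle, 0 for Sagunja-tang high against low (12), 25 for Samul-tang high against low (15), 0 for Samul-tang high against Sagunja-tang high (2) and 1 for Sibjeondaebo-tang high against Palmul-tang high (0). With GC and length trends removed in a fit with the block, it was 11 for medium Sagunja-tang (6), 10 for low Sagunja-tang (6) and 11 for low Sibjeondaebo-tang (7) against vehicle and 1 for Sibjeondaebo-tang medium against low (0). DESeq2 called 8 for low Samul-tang against vehicle (5), 1 for Sibjeondaebo-tang medium against low (0) and 1 for Sibjeondaebo-tang high against Palmul-tang high (0). Samul-tang high against Sagunja-tang high (2) gave 4 with no filter and 1 with GC and length trends removed.

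With 1 library left out, the count against vehicle was 12 to 23 for Sagunja-tang, 15 to 24 for Samul-tang, 26 to 28 for Palmul-tang and 28 to 30 for Sibjeondaebo-tang at the high dose. At the medium dose it was 0 to 8, 1 to 13, 5 to 18 and 8 to 17, and at the low dose 2 to 10, 1 to 5, 1 to 10 and 1 to 10, in the same order of extracts. High against low gave 1 to 18, 6 to 11, 13 to 18 and 27 to 32. Samul-tang high against Sagunja-tang high gave 0 to 12. With Sagunja-tang and Samul-tang this leaves a single library in a group, which is then assumed to vary like the other groups.

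Over 177 pairs of same-numbered libraries the correlation of their deviations lay between -0.169 and 0.172, with 16 over 0.1. The median was 0.0239, against -0.0147 for differently numbered pairs. The numbers were to count as pairing only if every pair passed 0.1, so the main fit did not use them. Pairing within a set of codes was not tested on its own. With the replicate block the count was 23 for Samul-tang high against low (15) and 2 for Sibjeondaebo-tang medium against low (0).

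Vehicle is a single group of 3 libraries shared by 12 comparisons, its codes differ from those of the extracts, and the groups of Sagunja-tang and Samul-tang hold 2 libraries. Expected counts divide reads among near-identical genes by an estimate, which bears on HSPA1A, HSPA1B, HSPD1, HSPE1, HSP90AA1 and TCP1 (all values fractional) and on HSPA4L, DNAJB6, CCT4 and CCT5 (97.0% fractional). HSPA6 lay under 1 CPM, where its level is poorly measured.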
